A study of Mus musculus with 8 samples.

Results

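Genes for RNA-binding proteins and splicing factors were followed as hosts of circular RNAs in the mouse heart. A circular RNA (circRNA) is a closed loop whose last exon end is joined to a start that lies upstream in the same transcript, and a back-spliced read is one that crosses this closing junction. Hosts were chosen by gene name alone, from the families Rbm, Srsf, Hnrnp, Celf, Mbnl, Rbfox, Elavl, Prpf, Sf3, Ddx, Dhx, Tnrc6, Cnot, Pum and Cpeb and the gene Snd1, leaving out Rbm20, Mbnl1 and Cpeb3. This gave 456 of the 27391 circles in the table, from 113 of 6492 host genes. Each library came from the heart of 1 male wild-type mouse. Of the 8 mice, 4 had a sham operation and the other 4 had transverse aortic constriction (TAC), a surgical narrowing of the aorta that loads the left ventricle with pressure. All hearts were taken 8 weeks after surgery, and the sources used here give neither the strain nor the age of the mice. The comparison asks which circles differ between hearts under lasting pressure overload and sham hearts.

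The members work at successive steps in the life of a messenger RNA. Prpf and Sf3 genes encode parts of the spliceosome. Rbm, Srsf, Hnrnp, Celf, Mbnl, Rbfox and Elavl proteins bind RNA, and many of them steer which exons are joined. These families are grouped here as splicing regulators by name alone. Ddx and Dhx proteins are RNA helicases. In the cytoplasm Tnrc6 proteins bridge Argonaute, the carrier of microRNAs, to the CCR4-NOT complex built from Cnot proteins, which shortens the poly(A) tail, while Pum and Cpeb proteins bind untranslated regions of messenger RNAs and Snd1 is a nuclease-like cofactor of silencing. Celf, Mbnl and Rbfox proteins are known in heart for the shift of splice forms after birth. Several such proteins also act on circle formation elsewhere: Qk, for example, can promote it and Dhx9 can unwind the paired repeats that favour it.

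Total depth ran from 3963 to 100142 back-spliced reads in sham libraries and from 1119 to 36120 in TAC libraries, and sham replicate 2 and TAC replicate 2, each under 5000 reads, are called the shallow libraries here. A single read was worth 4.54 normalised reads in sham replicate 2 and 5.77 in TAC replicate 2, against 0.195 to 1.03 in the other libraries. Circles of 16 of 20 cardiomyocyte marker genes were present, with summed levels of 311 to 918 normalised reads in sham and 381 to 1899 in TAC. Of 14 tested cardiomyocyte hosts 12 had a positive limma fold change (median 1.14, beside 0.13 for all hosts), and Slc8a1 was called higher by limma (2.66, adjusted p = 8.35e-08) and edgeR (2.37, adjusted p = 0.0173). Slc8a1 also showed each shallow library on the other group's side, with 313 normalised reads in sham replicate 2 and 24.7 to 60.7 in the other sham libraries, against 63.5 in TAC replicate 2 and 436 to 1050 in the other TAC libraries. Those of leukocyte markers (5 of 10 genes) summed to 14.4 to 28.6 and 11.5 to 40.1, those of endothelial markers (10 of 10) to 38.9 to 86.3 and 40.4 to 110 (with Npr3 called lower by edgeR, −2.18, adjusted p = 0.0256), and those of smooth muscle and pericyte markers (4 of 8) to 8.28 to 22.7 and 12.4 to 28.9. Fibroblast markers (7 of 10 genes) summed to 1.66 to 4.54 and 0 to 5.20, with Tcf21, Postn and Lum without a circle, and the defining markers Pln, Nebl, Myl3 and Tnni3 of cardiomyocytes had none. Markers of neurons and Schwann cells (2 of 10 genes) reached 4.54 in sham and 1.49 in TAC. Dysf, which is not a specific marker of endothelial cells, alone gave 14.1 to 36.3 in sham and 34.6 to 55.0 in TAC of the endothelial sums. Abcc9 gave 8.28 to 22.7 and 9.26 to 23.1 of the smooth muscle and pericyte sums. These sums rest in large part on 1 gene each and are no clean measure of a cell type. The part of cell composition in the results was not tested, and in these tissue libraries fewer cells of a type and less RNA per cell cannot be told apart.

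The closing junctions of the circles that the results turn on are shown first. Each is the last 15 bases of the circle's last exon in lower case joined to the first 15 bases of its first exon in capitals, 5′ to 3′ on the gene's strand, as read from GENCODE M21 transcripts at the mm10 positions of the table. Circles from 1 start border share the capitals and differ in the lower case letters.
Cnot6l exons 2 to 4: ctctaggtttaacagACTAATAGGGATGCC
Cnot6l exons 2 to 5: ttgacaatcttgcagACTAATAGGGATGCC
Cnot2 exons 2 to 4 (333 nt): tatacgggcaacaaaAGGGAGAACTGGTGG
Cnot2 exons 2 to 4 (263 nt): tatacgggcaacaaaTACTGTGAGGAAAGG
Cnot2 exons 2 to 3 (266 nt): cggtcagagaaagatAGGGAGAACTGGTGG
Cnot8 exons 3 to 6: ttcaggatgaaagagGACACAGAGTTCCCA
Prpf6 exons 7 to 8: gagatgtgccccaagGTATCTGACTCAGTG
Tnrc6a exons 3 to 5: gcaagagccagtcagGGATTTAGTGCAAGA
Tnrc6b exons 10 to 13: ccttattttgagaagATTCCAAATCTATGC
Tnrc6b exons 10 to 17: ctggatatggttctgATTCCAAATCTATGC
Snd1 exons 5 to 10: ggagacaacatacagCCCAGAGCAGAACCG
Snd1 exons 4 to 10: ggagacaacatacagATACTAATGGGGAAA
Rbm33 exons 8 to 9: taacccctgttcaagAACTTTCTGCAGAAG
Rbm33 exons 8 to 10: ccccaaagatttccaAACTTTCTGCAGAAG
The 2 Cnot2 circles of exons 2 to 4 share the lower case letters instead, since their first exon begins at different borders. The Snd1 circles likewise share the end of exon 10. None of 53 such member junctions that were searched occurred in a linear GENCODE transcript, and none of the 414 member junctions that could be built was shared with a circle of another host.

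Most members were rare. Of the 456 circles, 282 (61.8%) were seen in 1 library, close to the 61.7% of all circles, and 196 had 1 read over all 8 libraries. Only 5 were seen in all 8 libraries, among them Cnot6l exons 2 to 4, Cnot2 exons 2 to 4 (333 nt), Ddx17 exons 2 to 4 and 1 circle of Rbm4. Together the members held 4886 of 254236 back-spliced reads. Their share of a library was 1.94%, 1.72%, 1.84% and 2.23% in sham replicates 1 to 4 and 1.61%, 1.97%, 1.55% and 1.62% in TAC replicates 1 to 4. In the shallowest library, TAC replicate 2, the 95% Wilson interval of the share was 1.30% to 2.96%, which spans the values of all other libraries. Intervals of shares cover counting error only, since reads made by PCR are not independent molecules. The sum over all members was 329 ± 71.6 normalised reads in sham and 308 ± 123 in TAC (SD, n = 4 each), and the groups overlapped.

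Most members were exonic, as were most other circles, but intronic circles were more frequent among members. Of the 456, 416 were exonic and 40 (8.77%) were typed as intronic circles, against 4.77% of all other circles. Splicing regulators held 26 of these 40, or 15.9% of their own circles, among them 12 of 44 Hnrnp circles and 6 of 12 Srsf circles. The exonic members had a median spliced length of 498 nt and a GC content of 47.5%, beside 503 nt and 48.3% for other circles. Their flanking introns were shorter, with medians of 3476 nt upstream and 2928 nt downstream against 5365 and 4187 nt. Members began at the second exon of their transcript in 27.3% of cases and other circles in 23.1%. They held the start codon or 5′ untranslated bases more often (16.9% against 10.1%), and among Cnot circles 18 of 52 did. These shares are descriptions over circles, many of which share a host.

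The families differed in how many circles and how much circular RNA they gave. Ddx had the most circles, 75 from 21 hosts, but only 24.5 ± 9.51 normalised reads in sham and 24.3 ± 1.66 in TAC. Rbm had 68 circles from 15 hosts and Cnot 53 from 11, and these families held the largest sums. Within them a few hosts dominated: Cnot6l, Cnot2 and the next host held 91.5% of the Cnot sum and Rbm4, Rbm33 and the next 88.3% of the Rbm sum, whereas the top 3 of 21 Ddx hosts held 41.6%. At the low end stood Srsf (12 circles from 7 hosts, 19 reads in all) and Elavl (2 circles, 4 reads). Elavl2 and Elavl3 gave 1 circle each, and no call rests on either family.

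**Figure D1:**
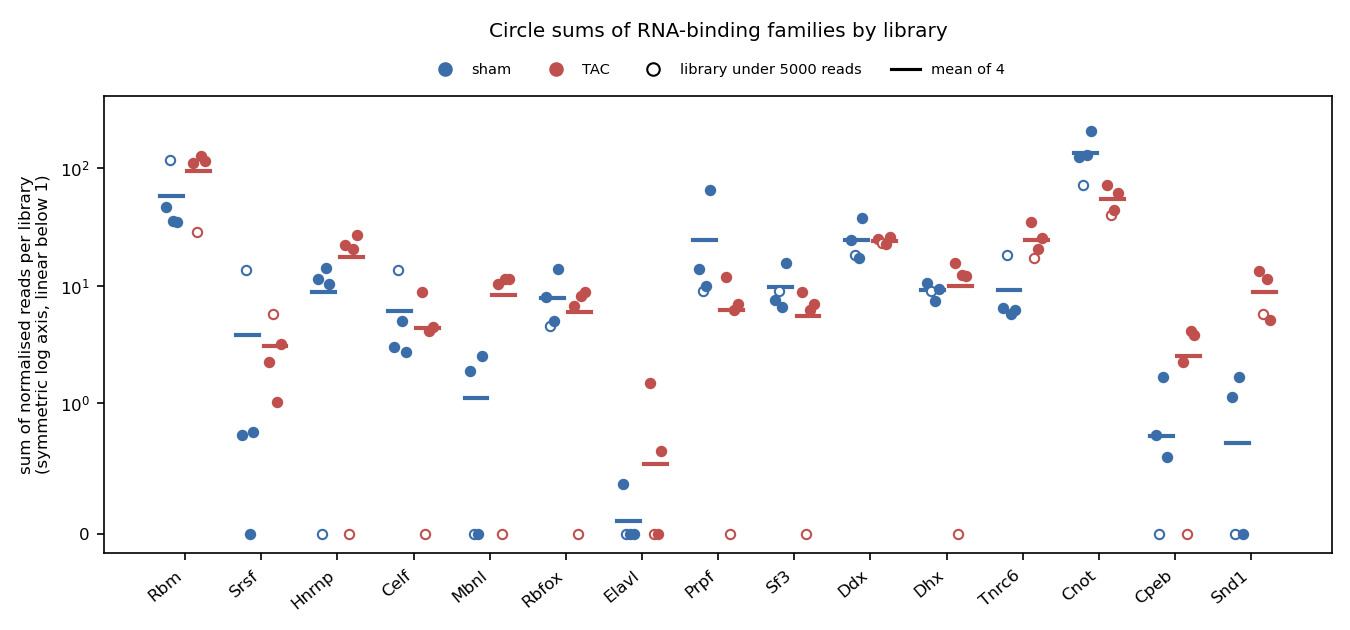
Sum of normalised reads over the circles of the families shown in every library (symmetric log axis, linear below 1), sham in blue and TAC in red, open points for the libraries under 5000 reads and bars for the mean of 4 libraries. Every TAC library lies above every sham library for Snd1, while Cnot sums are 72.7 to 209 in sham and 40.4 to 72.9 in TAC.

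In TAC hearts circles of the CCR4-NOT genes were lower, and those of Tnrc6 genes and Snd1 were higher, by their sums. Cnot circles summed to 126, 72.7, 131 and 209 normalised reads in sham replicates 1 to 4 and to 72.9, 40.4, 44.3 and 62.3 in TAC replicates 1 to 4. The groups met only where sham replicate 2, a shallow library, lay just under TAC replicate 1, and the sham mean was 2.45 times the TAC mean. Tnrc6 circles summed to 6.45, 18.2, 5.80 and 6.23 in sham and to 34.9, 17.3, 20.6 and 25.4 in TAC. They overlapped only through the shallow libraries, and the TAC mean was 2.68 times the sham mean. Snd1 circles summed to 1.14, 0, 1.66 and 0 in sham and to 13.4, 5.77, 11.3 and 5.09 in TAC, with no overlap. Without the shallow libraries, every TAC sum was also above every sham sum for Rbm, Srsf, Hnrnp, Mbnl, Dhx and Cpeb. Higher sums were thus not particular to Tnrc6 and Snd1, while only the Cnot family was lower throughout. The sums carry no test, as they add chosen members.

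Across single circles the main test called no member. With limma on log2(value + 0.195), 0 of 59 tested member circles passed an adjusted p of 0.05 (0.0268% of 3735 circles did, in either direction). At an unadjusted p under 0.05 there were 3 higher in TAC (1.95% of all circles) and 3 lower (2.12%). Fold changes of limma are on this log scale, so those of circles near 0 depend on the pseudocount. The 59 were the members above 0 in at least 4 libraries; 33 had a positive and 26 a negative fold change, with a median of 0.29 beside 0.15 for all circles. Of 56 member hosts tested on the sum of their circles, limma called 0 (0.0337% of 2967), with 1 higher (1.48%) and 3 lower (1.55%) at an unadjusted p under 0.05. On the recovered reads edgeR's quasi-likelihood test called 4 of 14 member circles, 2 higher (7.39% of 717 circles) and 2 lower (5.72%), or 13.1% of all in either direction. It called 4 of 17 member hosts, 2 higher (3.33% of 1020 hosts) and 2 lower (4.90%). DESeq2 called 1 circle (2.79% of circles lower), from Cnot6l, and 2 hosts, Snd1 higher (0.980%) and Cnot6l lower (1.57%).

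Without both shallow libraries more members were called, by either tool. The median limma fold change of all features then moved too, from 0.15 to 0.45 for circles and from 0.13 to 0.61 for hosts. limma then called 11 of 52 member circles, 7 higher (8.13% of all) and 4 lower (3.52%), and 9 of 56 hosts, 6 higher (9.82%) and 3 lower (2.57%). edgeR called 9 of 20 circles, 3 higher (16.4%) and 6 lower (13.6%), and 8 of 23 hosts, 5 higher (10.9%) and 3 lower (10.7%). Over all 8 libraries the groups did not overlap for 1 tested member circle with TAC all higher (0.884% of all circles), Snd1 exons 5 to 10, and for 3 with TAC all lower (2.22%), those of Prpf6, Cnot6l and Cnot8 named below. The Snd1 loop was at 0 in sham and was tested only because every TAC library had a read. Its lack of overlap was thus fixed by the filter. Among hosts the groups did not overlap for Snd1, higher (1.35%), and for Prpf6 and Cnot6l, lower (1.89%).

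**Figure D2:**
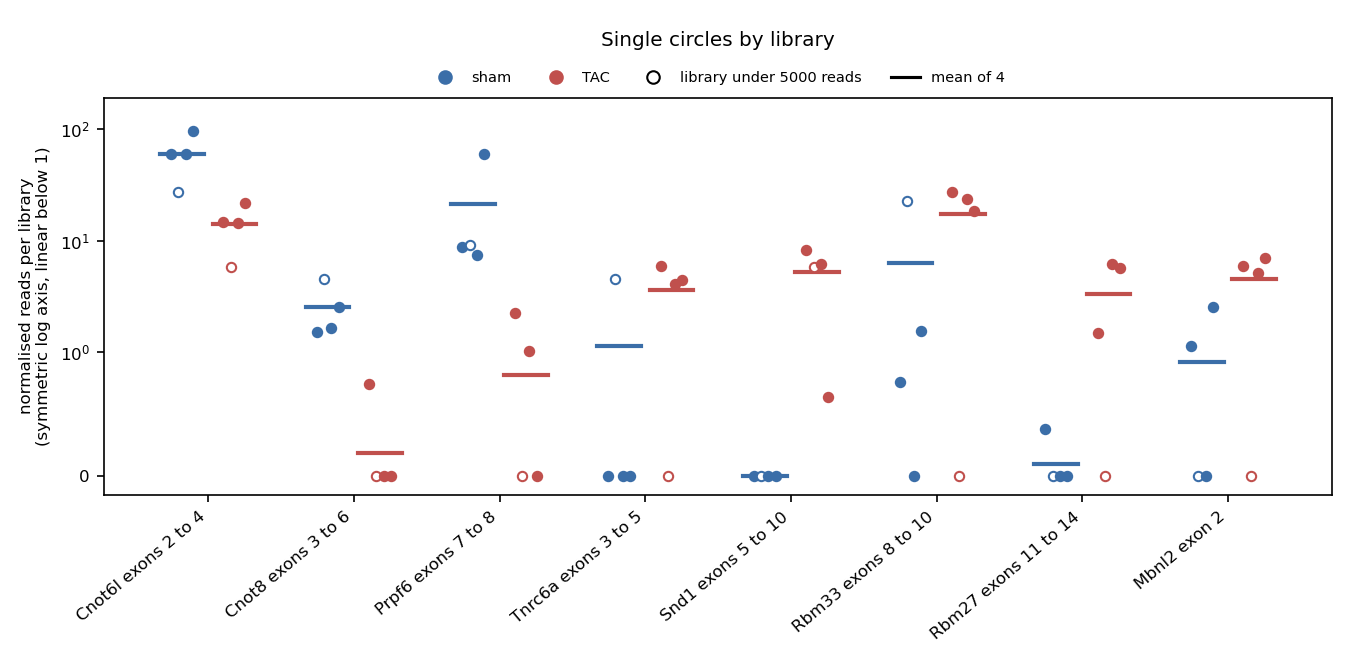
Normalised reads of 8 member circles in every library (symmetric log axis, linear below 1), with sham in blue, TAC in red, open points for the libraries under 5000 reads and bars for the mean of 4. The circles of Cnot6l, Cnot8 and Prpf6 are lower in every TAC library than in any sham library, and the Snd1 circle is at 0 in sham and above 0 in the 4 TAC libraries.

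Cnot6l, a deadenylase subunit of CCR4-NOT, was the most abundant host among the members and fell in TAC by edgeR. Its 10 circles summed to 74.3, 36.3, 69.6 and 109 normalised reads in sham and to 25.3, 5.77, 21.6 and 28.6 in TAC. The lowest sham library stood above the highest TAC library, and edgeR gave a log2 fold change of −2.15 ± 0.65 (SE, adjusted p = 0.0221). DESeq2 gave −2.01 (adjusted p = 0.0046) and limma −1.94 ± 0.78 (adjusted p = 0.9995). Leaving out sham replicate 1, 3 or 4 or TAC replicate 1, 3 or 4 ended the edgeR call, at adjusted p between 0.0543 and 0.305, with the fold change still between −2.37 and −1.88 in all 8 such fits.

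A single loop made up 80.6% of the Cnot6l sum. It joins exons 2 to 4 (chr5:96128943-96134132, minus strand, 395 nt, of which 10 nt lie before the start codon). Its reads were 157, 6, 72 and 493 in sham and 20, 1, 14 and 34 in TAC, or 60.6 ± 28.1 and 14.2 ± 6.50 normalised reads. All TAC libraries were lower, and edgeR gave −2.29 ± 0.83 (adjusted p = 0.0473), a call that edgeR kept in 2 of 8 fits with a library left out. The next longer loop from the same start, exons 2 to 5, had 4.55, 9.09, 4.97 and 6.23 in sham and 6.69, 0, 4.12 and 5.09 in TAC, and its groups overlapped. The start of exon 2 thus opened 91.8% of Cnot6l circular RNA.

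No other Cnot gene was called over all libraries. By limma all 6 tested Cnot hosts had a negative fold change, with a median of −1.34, where 25 of all 56 member hosts were negative, and by edgeR 3 of 4 were negative. Cnot4, a ubiquitin ligase bound to the complex, turned with the method: it summed to 5.31 ± 5.59 in sham and 6.23 ± 5.23 in TAC. Its fold change was −0.34 by limma, 0.74 by edgeR (adjusted p = 0.561) and 1.60 by limma without both shallow libraries (adjusted p = 0.0859). Cnot2, a structural subunit of CCR4-NOT, had 11 circles that summed to 41.3, 13.6, 51.3 and 72.6 in sham and to 27.5, 34.6, 12.4 and 22.9 in TAC. Its groups overlapped (edgeR −1.43, adjusted p = 0.142), and without both shallow libraries edgeR called it lower (−1.78, adjusted p = 0.0015). Cnot8, the deadenylase that works beside Cnot6l, had a loop of exons 3 to 6 (chr11:58111260-58115375, plus strand, 612 nt). That loop had 4, 1, 2 and 13 reads in sham and 1, 0, 0 and 0 in TAC, so its groups did not overlap, but limma's adjusted p was 0.834. Cnot1, the scaffold of the complex, summed to 4.67 ± 1.90 in sham and 1.69 ± 1.93 in TAC (edgeR −1.58, adjusted p = 0.190).

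Cnot2 showed 3 abundant loops with different values. The loop of 333 nt (chr10:116517317-116549175, minus strand, exons 2 to 4) had 20.1, 9.09, 31.5 and 27.4 normalised reads in sham and 20.1, 5.77, 9.26 and 7.63 in TAC. The loop of 266 nt, exons 2 to 3 from the same start, had 11.4, 0, 9.94 and 34.0 in sham and 2.97, 0, 1.03 and 2.54 in TAC. Among the 6 deeper libraries both were lower in TAC without overlap, the longer of them narrowly, and limma called the shorter (−2.85, adjusted p = 0.0002). Such a split was frequent there. Of 59 tested member circles, 19 were all higher in TAC and 13 all lower, and the share over all circles is not given here. The loop of 263 nt starts further into exon 2 (chr10:116517317-116549105) and had 6.83, 0, 4.97 and 11.1 in sham against 3.72, 28.9, 1.03 and 10.8 in TAC, with overlap. Its highest value, in TAC replicate 2, was 5 reads.

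Tnrc6 genes encode the scaffolds that carry CCR4-NOT to microRNA targets, and their circles lay on the other side. All 3 hosts had a positive limma fold change, with a median of 1.67, and edgeR called Tnrc6a higher. Tnrc6a circles summed to 0.379, 4.54, 0 and 0.973 in sham and to 9.67, 0, 8.23 and 6.36 in TAC (edgeR 2.77 ± 0.86, adjusted p = 0.0273). Each shallow library went against its group, sham replicate 2 with 1 read and TAC replicate 2 with none. The loop of exons 3 to 5 (chr7:123143750-123162877, plus strand, 494 nt) carried 63.2% of that sum and was called by edgeR (4.17 ± 1.43, adjusted p = 0.0348) but not by DESeq2 (4.00, adjusted p = 0.112). The only sham signal of this loop was that of sham replicate 2. edgeR kept the loop's call without sham replicate 2 (5.91) or TAC replicate 2 (4.46). Without sham replicate 2 the loop was at 0 in sham and passed the filter only through TAC, so that fit is no support for a rise. The call was lost without sham replicate 3 (adjusted p = 0.110) or TAC replicate 3 (0.233), and the other left-out fits had too few reads for this loop. The host call was lost, with adjusted p of 0.0509 to 0.279, without any 1 of the 6 deeper libraries.

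Tnrc6b gave 16 circles and most of the family's sum. They summed to 3.79, 13.6, 4.14 and 5.25 in sham and to 20.8, 17.3, 9.26 and 13.4 in TAC, with overlap through sham replicate 2 and an edgeR fold change of 1.12 (adjusted p = 0.275). Without both shallow libraries limma (1.61, adjusted p = 0.0194) and edgeR (1.30, adjusted p = 0.0431) called Tnrc6b higher. The start of exon 10 opened 53.7% of this sum. From it the loop to exon 13 (434 nt) had 5, 0, 2 and 21 reads in sham and 3, 0, 0 and 4 in TAC, and the loop to exon 17 (984 nt) had 1, 1, 0 and 0 against 9, 0, 3 and 2. Tnrc6b exon 7 had the largest mean of the host's circles only through 3 reads of TAC replicate 2. Tnrc6c summed to 0.983 ± 1.16 in sham and 3.32 ± 2.46 in TAC.

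Snd1, which binds double-stranded and edited RNA and joins silencing complexes, rose by both count tests on few reads. Over its 9 circles the sham libraries held 3, 0, 2 and 0 reads and the TAC libraries 18, 1, 11 and 8. edgeR gave 3.30 ± 0.83 (adjusted p = 0.0036) and DESeq2 3.36 (adjusted p = 0.0239), while limma gave 3.92 ± 1.60 (adjusted p = 0.9995). edgeR called it in 5 of 7 fits with a library left out and lost the call without sham replicate 4 (adjusted p = 0.0740) or TAC replicate 3 (0.0866). Its main loop, exons 5 to 10 (chr6:28526053-28545598, plus strand, 724 nt), was listed at 0 in all sham libraries and had 11, 1, 6 and 1 reads in TAC. With 3 reads over the sham group as the floor, its pooled level in TAC was at least 14.4-fold higher. This fold treats reads as independent and belongs to a loop named partly for its 0 in sham, so it only describes these reads. limma gave that loop the smallest unadjusted p of the member circles (0.0034, adjusted p = 0.834). It passed limma's filter only because all TAC libraries had a read, so that p is no support for a rise. In all, 4 Snd1 circles ended at exon 10, with 74.0% of the host's sum.

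Pum2, which binds untranslated regions, summed to 2.60 ± 1.92 in sham and 3.36 ± 3.34 in TAC. Cpeb genes, regulators of poly(A) tail length and translation, gave few reads. Their 8 circles summed to 0.750 ± 0.686 in sham and 2.54 ± 1.89 in TAC. The largest host was Cpeb1, at 0.379, 0, 1.66 and 0 in sham and 1.49, 0, 4.12 and 2.54 in TAC, with overlap and a limma fold change of 1.65 ± 1.41 (adjusted p = 0.9995). Its loop of exons 2 to 3 had 1, 0, 0 and 0 reads in sham and 1, 0, 3 and 1 in TAC.

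**Figure D3:**
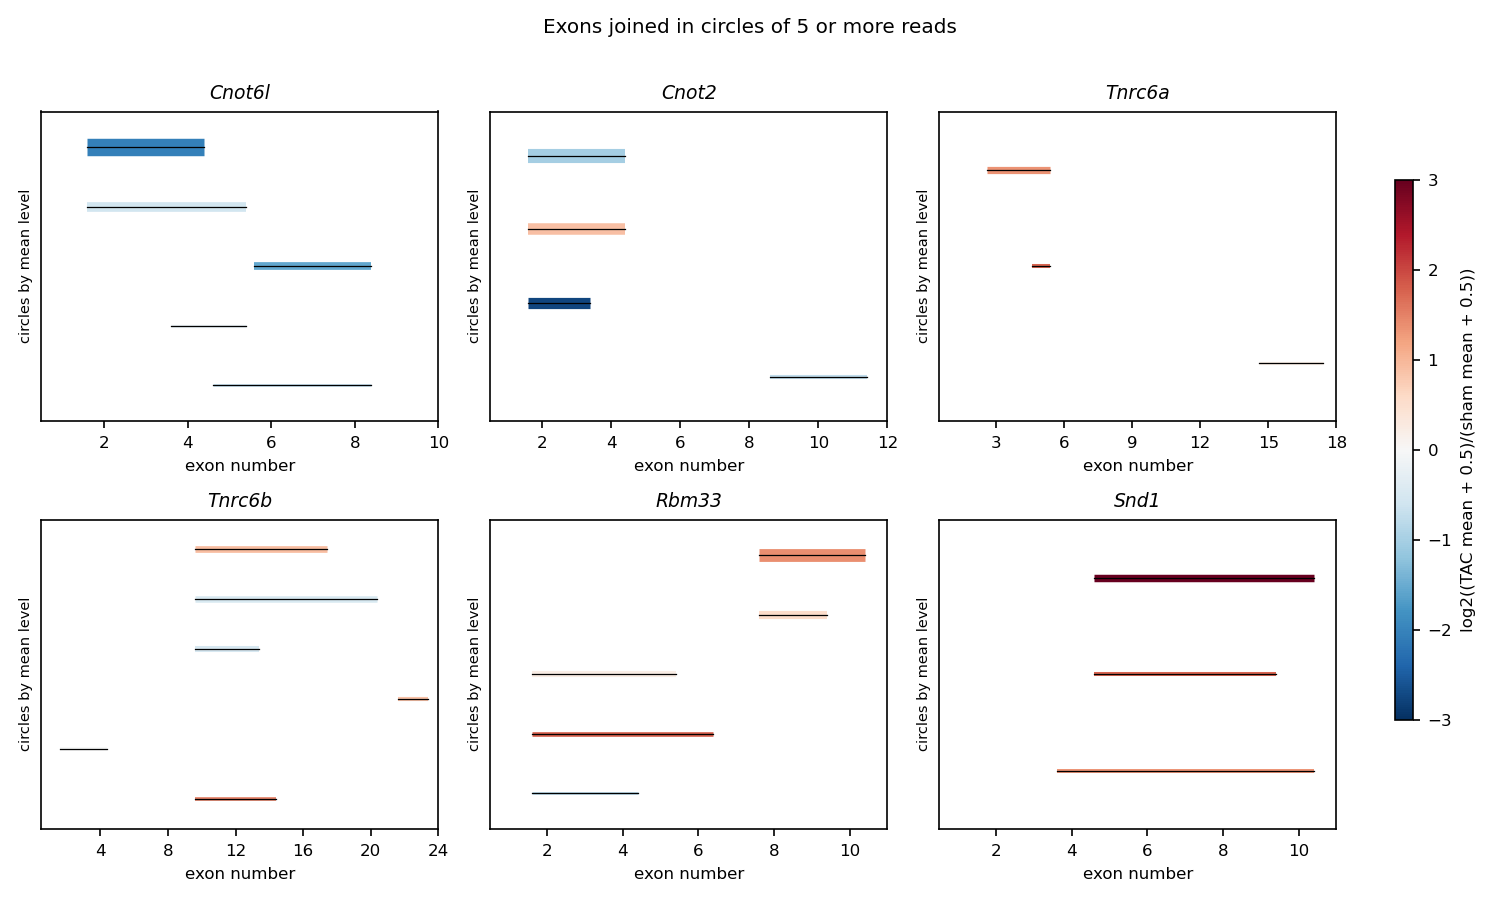
Exons joined by the circles of 6 hosts with 5 or more reads, 1 bar per circle ordered by mean level, against the exon number in the matching GENCODE M21 transcript. Bars are thicker at a higher mean level and coloured by log2((TAC mean + 0.5)/(sham mean + 0.5)), red for higher in TAC. The Cnot6l bar of exons 2 to 4 is the thickest of its host.

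The spliceosome core showed 1 large fall, that of Prpf6, a protein of the tri-snRNP. Its circles summed to 9.86, 9.09, 7.45 and 60.9 normalised reads in sham and to 2.97, 0, 3.09 and 0 in TAC. The groups did not overlap, and sham replicate 4 stood far above the other sham libraries. edgeR gave −4.06 ± 0.79 (adjusted p = 0.0002) and called this host in all 8 fits with a library left out, at −2.74 (adjusted p = 0.0186) without sham replicate 4 and with an adjusted p of at most 0.0411. limma gave −4.19 ± 1.54 (adjusted p = 0.9995), and DESeq2 set the p-value of this host to missing. A single loop of exons 7 to 8 (chr2:181631435-181632087, plus strand, 252 nt, all coding) made 94.5% of the sum. That loop had 23, 2, 9 and 307 reads in sham and 3, 0, 1 and 0 in TAC (edgeR −4.64 ± 0.99, adjusted p = 0.0010). edgeR lost the loop's call without TAC replicate 3 (adjusted p = 0.0797) or 4 (0.0739), and without sham replicate 4 its fold change was −3.29 (adjusted p = 0.0188).

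Other spliceosome genes had lower and closer values. Of 4 tested Prpf hosts 1 had a positive limma fold change, and none but Prpf6 was called. Sf3b3, a subunit of the SF3b complex that recognises the branch point, summed to 8.24 ± 4.61 in sham and 3.95 ± 2.76 in TAC, with overlap and an edgeR fold change of −1.32 (adjusted p = 0.197). Its loop of exons 16 to 17 (278 nt) held 97.9% of that sum. All 4 tested circles of the core, those of Prpf6, Prpf4, Sf3b3 and Sf3a2, had a negative limma fold change. That of Sf3a2, its only circle, was −0.08 and turned to 1.43 without both shallow libraries. With the length trend removed, 1 of the 4 was positive.

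Among the hosts grouped by name as splicing regulators, Rbm4 and Rbm33 held most of the circular RNA. Rbm4, a regulator of muscle cell splicing, summed to 31.9, 59.1, 15.7 and 18.9 in sham and to 52.8, 28.9, 62.8 and 57.2 in TAC, with overlap through both shallow libraries (edgeR 0.57, adjusted p = 0.628). Without both limma called it higher (1.43, adjusted p = 0.0024) and edgeR did not (0.93, adjusted p = 0.0635). Its main loop (chr19:4792398-4794009, minus strand) had 84, 9, 19 and 93 reads in sham and 68, 3, 54 and 88 in TAC. A border of this loop matched no exon of GENCODE M21, so it has no length or junction here. Rbm4 lies beside its close copy Rbm4b, and reads could be split between them by a step that is not described, so its level is uncertain.

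Rbm33, an RNA-binding motif protein, summed to 3.41, 36.3, 3.31 and 4.67 in sham and to 38.7, 0, 35.0 and 31.8 in TAC. The deeper libraries of the groups lay far apart, and each shallow library sat with the other group (edgeR 1.77, adjusted p = 0.0793; without both, 2.77 and 0.0002). Its loop of exons 8 to 10 (chr5:28358274-28368313, plus strand, 557 nt) had 2, 5, 0 and 8 reads in sham and 37, 0, 23 and 29 in TAC and rose by edgeR (2.84 ± 0.85, adjusted p = 0.0171). edgeR kept that call in 2 of 8 fits, those without sham replicate 2 (4.05) or TAC replicate 2 (3.29), and the adjusted p reached 0.248 in the others. Rbm27, a zinc finger RNA-binding protein, had a loop of exons 11 to 14 with 1 sham read and 2, 0, 6 and 9 TAC reads (limma 2.88 ± 1.38, adjusted p = 0.834; without both shallow libraries 3.84 and 0.0289).

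The tissue splicing regulators gave less. Mbnl2, of the muscleblind proteins that drive the adult splice program, summed to 1.90, 0, 0 and 2.53 in sham and to 10.4, 0, 11.3 and 11.5 in TAC. Its 3 deeper TAC libraries stood above every sham library. Among the deeper libraries alone, 15 of 56 tested member hosts were all higher in TAC and 5 all lower. The share over all hosts is not given here, so these counts are no result about the members. In limma without both shallow libraries 67.7% of all tested hosts had a positive fold change, beside 64.3% of member hosts. Mbnl2 had too few reads for edgeR over all libraries, but without both shallow libraries limma (3.44, adjusted p = 0.0012) and edgeR (2.23, adjusted p = 0.0158) called it. With 1 library left out limma made no call, and edgeR called it in 3 of 5 fits, with adjusted p from 0.0286 to 0.166. Its main loop was exon 2 alone, 619 nt of which 445 nt lie before the start codon. Celf proteins act against muscleblind proteins at many exons. Celf2 summed to 1.24 ± 1.50 and 3.93 ± 3.39, and Celf1 to 4.84 ± 6.25 and 0.443 ± 0.525, where 3 reads of sham replicate 2 for exons 3 to 14 made 13.6 of its normalised reads. Rbfox1 summed to 7.58, 4.54, 1.66 and 12.6 in sham and 4.46, 0, 5.15 and 5.09 in TAC, with overlap (edgeR −1.13, adjusted p = 0.294). Hnrnpll, which regulates lymphocyte splicing, summed to 4.92 ± 3.74 and 8.13 ± 5.54 and was the largest Hnrnp host. Among Srsf genes Srsf11 led with 3 reads of sham replicate 2.

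Circles of the RNA helicases hardly differed in sum. Their 120 circles from 34 hosts summed to 33.7 ± 10.1 in sham and 34.3 ± 7.84 in TAC. Ddx17, a coregulator of splicing and microRNA processing, summed to 4.55, 4.54, 4.97 and 10.5 in sham and to 1.49, 11.5, 4.12 and 4.45 in TAC, and its groups overlapped (edgeR −1.15, adjusted p = 0.313). Dhx9 summed to 4.17, 9.09, 2.48 and 0 in sham and to 3.72, 0, 4.12 and 1.91 in TAC. The start of its exon 2 opened 97.1% of that sum, and the sign of its fold change turned with the libraries used. Ddx42, a helicase of the branch point step, had a loop of exons 10 to 13 with 0, 1, 2 and 8 reads in sham and 0, 0, 1 and 0 in TAC.

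Circle length moved with the group among members as it did in the whole table. The spliced length at the median member read, in the order of the replicate numbers, was 385, 395, 369 and 333 nt for sham and 489, 333, 498 and 464 nt for TAC. The deeper TAC libraries held longer circles, and the shallow TAC library resembled sham. The share of member reads from circles of 500 nt or more was 31.6% in sham replicate 2, against 9.03% to 15.6% in the other sham libraries and 40.5% to 47.3% in the deeper TAC libraries. Over all circles each shallow library sat nearer the other group, with a median of 490 nt in sham replicate 2 (353 to 394 nt in the other sham libraries) and 334 nt in TAC replicate 2 (498 to 542 nt in the other TAC libraries). Why the shallow libraries cross was not tested. Of 13 tested members under 300 nt, 3 had a positive fold change (median −0.84); of 24 from 300 to under 500 nt, 12 did (median −0.07); and of 20 with 500 nt or more, 16 did (median 1.21). For all tested circles the medians were −0.83, −0.06 and 0.87, so members followed the table. Once each library's trend on length was removed, the 3 medians of members were −0.05, −0.28 and −0.01, and limma called 0 of 57 members and 0 of 3694 circles, with 11 members at an unadjusted p under 0.05 (9.23% of all circles).

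Families differed in how much of their value remained after that step. For Cnot circles the median limma fold change was −1.39 before and −1.34 after, with 4 of 12 and then 2 of 12 positive, and Cnot6l exons 2 to 4 went from −2.09 to −2.15. For the 5 tested Tnrc6 circles it was 1.47 before and 0.18 after. The 8 tested Rbm circles with a length went from 1.37 to 0.80, the 2 Prpf circles from −2.55 to −2.51 and the 2 Snd1 circles from 3.08 to 2.03. In other families the value shrank or turned. The 6 Ddx circles went from −0.85 to −0.44, the 2 Sf3 circles from −0.90 to 0.001 and the 2 Hnrnp circles from 0.09 to −0.66.

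**Figure D4:**
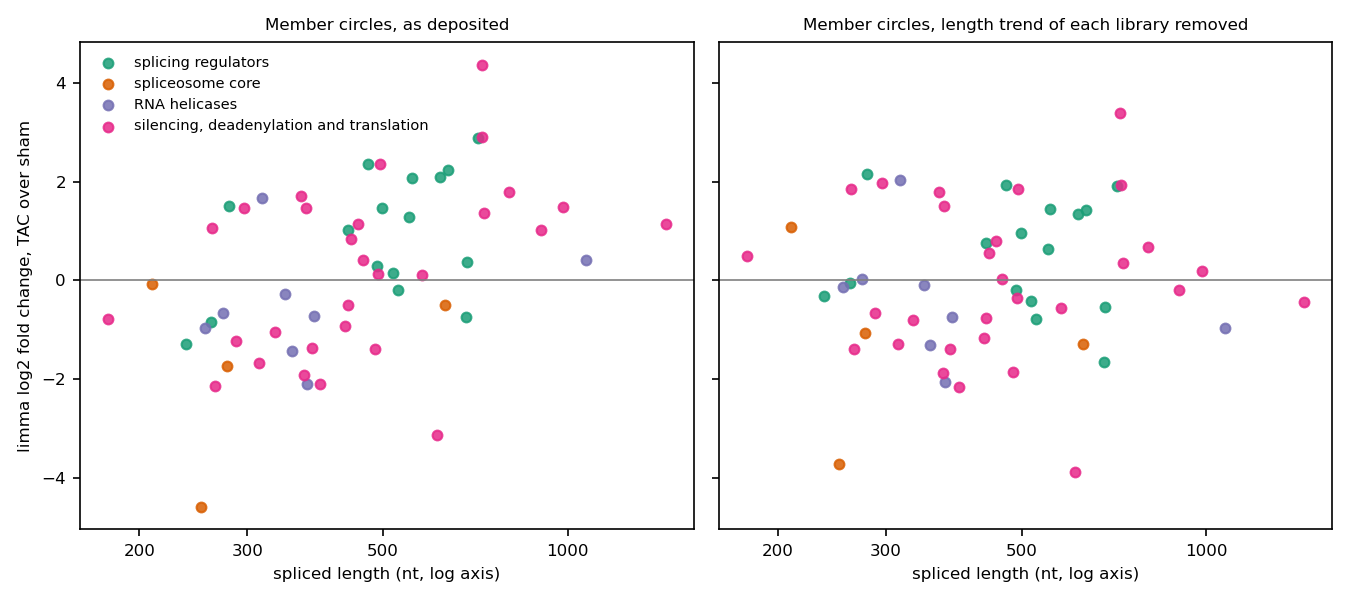
limma log2 fold change (TAC over sham) of 57 tested member circles against spliced length in nt (log axis), coloured by role, as deposited on the left and after removal of each library's length trend on the right. On the left 16 of 20 circles of 500 nt or more lie above 0 and 10 of 13 under 300 nt lie below, and on the right 10 of 20 and 6 of 13 lie above 0.

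Pairs of loops that open at the same border show the pattern inside single genes. In 8 sets of tested member circles with a shared start, the longest loop had the higher fold change in 7, with a median difference of 0.89 on the log2 scale. Over all tested circles this held in 66.3% of 460 sets, with a median difference of 0.75. The gap was 2.07 for Rbm33 at exon 2 (518 and 638 nt) and 2.05 for Tnrc6b at exon 10 (434 and 1446 nt). For Cnot6l at exon 2 it was 0.70, and both loops were negative. With the length trend removed the longest was higher in 6 of 8 member sets and in 219 of 460 sets overall. The sets share libraries, and several rest on loops with few reads.

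Beyond the members, other genes of the same pathways were taken from lists. Of 62 other spliceosome and splicing genes 52 had a circle, and of 28 tested hosts limma called none (18 positive, 10 negative, median 0.42, and 1 at an unadjusted p under 0.05). edgeR called 1 of 8, Luc7l, a component tied to the U1 particle, lower in TAC at −2.69 ± 0.69 (adjusted p = 0.0048), with 11.4, 4.54, 24.8 and 39.9 normalised reads in sham and 5.95, 0, 5.15 and 3.82 in TAC. The largest hosts of that list were Qk, at 30.0, 68.1, 18.2 and 25.9 in sham and 204, 5.77, 187 and 127 in TAC (edgeR 1.74, adjusted p = 0.0654), and Rbms1, at 61.4 ± 36.1 and 24.3 ± 16.9 (edgeR −1.79, adjusted p = 0.0570). Both Qk groups are split by their shallow libraries. Of 71 other genes of silencing, decay and translation control 59 had a circle, and neither limma (0 of 36, 13 positive and 23 negative, median −0.21) nor edgeR (0 of 13) nor DESeq2 called one. At an unadjusted p under 0.05 limma had 1 of them and edgeR 4. The largest were Samd4, at 55.4 ± 22.7 and 69.9 ± 47.4, and Stau2, at 51.6 ± 30.4 and 25.2 ± 17.8. The linear RNA of all these hosts was not analysed here, so a change of the circle and a change of the whole gene cannot be told apart.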

How the data were processed

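Hearts of 4 sham and 4 TAC mice gave 1 library each, made by a company from circular RNA extracted with a kit, per the labels' protocols, which state 4 mice per group. The submitters' processing notes name mm10, the tools HISAT2, StringTie and DESeq2 but no version or role of any, and no source used here names the circRNA caller. The deposited signal holds the reads across each closing junction, which the authors divided by a size factor of the library. This follows from the values, of which 100% were whole multiples of 1 read within 0.001. Size factors ran from 0.173 to 5.14. Members and gene lists were chosen with earlier results of these data known.

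limma 3.58.1 with an intensity trend was run on log2(value + 0.195), with the smallest nonzero value of the table as pseudocount, over all circles (or host sums) above 0 in at least 4 of 8 libraries. Its SE and p follow the intensity trend more than a circle's own spread. edgeR 4.0.16 (quasi-likelihood, TMM, robust, minimum count 5, minimum total 15) was run on the recovered reads as an alternative and called 94 of 717 circles. DESeq2 1.42.0 was run on the same circles. Adjusted p-values follow Benjamini and Hochberg over all features, with a threshold of 0.05. Replicates are numbered in accession order. Named circles and hosts are those called by limma or edgeR, the largest host of each family with its main circle, the 6 largest hosts, the 4 circles per direction with the smallest limma p, the 3 hosts with the most circles, tested circles at 0 in a whole group, and, of each pathway list, called genes and the 2 largest. Others named were chosen after their values were seen. The results of 1 member host are not reported here. Positions are given from 1 in mm10, and lengths come from GENCODE M21 for 99.5% of exonic members. No source used here names the strand of the libraries, so antisense partners cannot be told apart. Scripts were tested on simulated data.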

Additional observations from a re-analysis of the deposited data

Results flagged for a closer look

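In 32 of 122 groups of 4 libraries that were examined, 1 library lay further from the rest than a Dixon test at 95% allows. Chance alone would give about 6.1 only for independent groups with a normal spread. Here circle, host, family and role share reads, so the 32 cannot be set against the 6.1. Many of the flagged values are 1 to 3 reads of a shallow library or a lone read in a group otherwise at 0.

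Sham replicate 4, the deepest library, was high for Prpf6: 59.7 normalised reads for exons 7 to 8 (the next sham library had 9.09), 60.9 for the host, 65.6 for the Prpf family and 81.1 for the spliceosome core. It was also high for the Ddx17 host, at 10.5.

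Sham replicate 2, a shallow library, was high in its group for Rbm33 exons 8 to 10 (22.7), the Rbm33 host (36.3), the Rbm family (118) and the splicing regulators (150). The same library was high for Tnrc6a exons 3 to 5 (4.54, 1 read), the Tnrc6b host (13.6), the Tnrc6 family (18.2), Srsf11 exons 2 to 5 (9.09), the Srsf11 host and the Srsf family (13.6 each), and Celf1 exons 3 to 14 (13.6, 3 reads).

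TAC replicate 2, the shallowest library, was low for the Rbm4 loop that starts at 4792398 on chromosome 19 (17.3) and for the splicing regulators (34.6), and stood at 0 for Mbnl2, host and family, and for Rbfox1. It was high for Ddx17 exons 2 to 4 (11.5, 2 reads) and Tnrc6b exon 7 (17.3, 3 reads).

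The remaining values come from libraries that were alone in their group with a read. In sham replicate 1 a read worth 0.379 was the only sham signal for Cpeb1 exons 2 to 3, Rbm27 exons 11 to 14, Rbm33 exons 2 to 6 and the Elavl family. In TAC replicate 1 the Srsf11 host and Cnot8 exons 3 to 6 had 0.744 and Elavl3, host and exons 2 to 6, had 1.49, and in TAC replicate 3 Ddx42 exons 10 to 13 had 1.03.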

How the results depend on the processing

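No paired analysis was possible because the replicate numbers follow accession order and pair no sham mouse with a TAC mouse. A pseudocount of 1, no filter on low values, 10 reads in 4 libraries and TMM rescaling left limma's counts of called members at 0. So did removal of the length trend for circles. The counts moved under other tests: 4 circles and 4 hosts with edgeR and 1 circle and 2 hosts with DESeq2. Without both shallow libraries they were 11 circles and 9 hosts with limma and 9 circles and 8 hosts with edgeR. With 1 library left out the counts ran from 0 to 7 circles and from 0 to 7 hosts, the highest with edgeR without sham replicate 2, and edgeR called 0 circles without TAC replicate 3. Without any 1 of the 6 deeper libraries edgeR called 0 to 2 circles and 1 to 3 hosts, and without TAC replicate 2 it called 6 of each. Calls over the whole table moved as well. Without sham replicate 2 edgeR called 145 circles higher and 103 lower of 1134, and 104 hosts higher and 126 lower of 1381. Without TAC replicate 2 it called 145 circles higher and 85 lower of 1216, and 63 hosts higher and 48 lower of 1440. Without TAC replicate 3 it called 0 of 1111 circles. The cause of these moves was not tested.

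The sign of the fold change turned in the following cases, besides those of Cnot4 and Sf3a2 given above. Hnrnpll exons 2 to 7 turned to −0.54 with the length trend removed, and Dhx9 exons 2 to 3 to 0.027. Without both shallow libraries Rbfox1 exons 6 to 9 was 0.41, Dhx9 exons 2 to 3 was 0.98 (edgeR 0.46) and the Dhx9 host was 1.32 (edgeR 0.17). With 1 library left out the fold change ran from −0.71 to 2.01 for the Hnrnpll host, from −0.89 to 1.77 for its exons 2 to 7, from −0.88 to 0.056 for the Ddx17 host, from −1.56 to 0.62 for the Dhx9 host and from −1.76 to 0.22 for its exons 2 to 3 (with edgeR 0.29 without sham replicate 2 and 0.086 without TAC replicate 2). It ran from −0.19 to 2.36 for the Rbm33 host. Depth limits what could be tested: of 456 members, limma tested 59 and edgeR 14.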
